A study of Homo sapiens with 12 samples.

Results

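Interferon-stimulated genes are a set of 39 genes whose transcripts were measured here in REC1, an established human mantle cell lymphoma line, by RNA sequencing. They were chosen by name, with earlier results of these data known, from 60483 genes of the deposited count table, and all 39 were found there. Cells were exposed to ibrutinib and SPX5551 together (the combination), to ibrutinib, to SPX5551 or to DMSO, and RNA was taken after 4, 8 and 12 h, which gave 1 library for each treatment and hour and 12 libraries in all. Ibrutinib inhibits BTK, the kinase that carries signals from the B-cell receptor, and SPX5551, called pol5551 in the table headers, is presented in the study's title as an inhibitor of the chemokine receptor CXCR4. No dose was given in the sources used here, nor whether libraries came from separate cultures. The 3 times therefore stood in as replicates of a treatment (n = 3), so the p-values reflect only how far these libraries lay apart, which may be technical.

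Interferons are secreted proteins that bind receptors on the cell surface. Type I and type III interferons act through the kinases JAK1 and TYK2, which phosphorylate STAT proteins. STAT2 and IRF9 act together at a DNA element, the interferon-stimulated response element (ISRE), and switch on genes that restrain viruses. Interferon gamma acts mainly at another element, the gamma-activated site (GAS). Many of the induced genes also keep a low basal level in the absence of added interferon, and IRF1 and IRF7 can drive part of the set.

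Promoter windows of the genes were read to see how many carry these elements. RefSeq windows (build GRCh38.p14, 250 bases before to 50 after a transcript start) were held for 31 of the 39 genes, with 42 windows in all. The ISRE core was GAAANNGAAA, searched on both strands (TTTCNNTTTC on the other), and it was present in 17 of the 31 genes (54.8%), beside 4.38% of 27305 genes with a window in the same table. Counted by window the share was 47.6%, beside 3.57% of 35116 windows. The GAS core searched was TTCNNNGAA, which reads the same on both strands, and it was present in 7 of the 31 genes (22.6%), beside 9.38% of all genes. The 2 cores can overlap, as they do in BST2. Windows are shown for 6 of the genes that differed between treatments. The choice shows the neighbours SAMD9 and SAMD9L with and without a core, and IFIT3 with a pair in the window shown. It also holds STAT2 and RIGI with none, and BST2, which went the other way. Each window runs 5′ to 3′ and capitals mark ISRE and GAS cores.
SAMD9 (chr7:93117930-93118229, minus strand): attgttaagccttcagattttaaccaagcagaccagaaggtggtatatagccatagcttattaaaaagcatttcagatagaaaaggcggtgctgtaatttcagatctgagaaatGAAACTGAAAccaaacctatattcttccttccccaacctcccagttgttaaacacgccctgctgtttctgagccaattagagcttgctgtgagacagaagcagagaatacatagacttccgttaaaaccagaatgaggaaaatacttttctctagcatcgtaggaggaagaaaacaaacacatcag
SAMD9L (chr7:93148336-93148635, minus strand): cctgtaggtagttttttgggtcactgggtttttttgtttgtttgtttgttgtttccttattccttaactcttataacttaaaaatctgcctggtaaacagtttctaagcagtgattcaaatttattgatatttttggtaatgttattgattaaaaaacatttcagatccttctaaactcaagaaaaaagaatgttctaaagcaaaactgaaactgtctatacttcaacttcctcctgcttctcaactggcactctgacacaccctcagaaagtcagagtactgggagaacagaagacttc
IFIT3 (chr10:89327747-89328046, plus strand): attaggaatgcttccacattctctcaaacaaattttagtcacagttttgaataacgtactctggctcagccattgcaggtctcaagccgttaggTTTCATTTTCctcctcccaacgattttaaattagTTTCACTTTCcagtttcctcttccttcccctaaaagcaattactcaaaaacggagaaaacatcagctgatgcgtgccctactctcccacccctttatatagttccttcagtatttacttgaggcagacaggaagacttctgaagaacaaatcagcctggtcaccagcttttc
STAT2 (chr12:56360058-56360357, minus strand): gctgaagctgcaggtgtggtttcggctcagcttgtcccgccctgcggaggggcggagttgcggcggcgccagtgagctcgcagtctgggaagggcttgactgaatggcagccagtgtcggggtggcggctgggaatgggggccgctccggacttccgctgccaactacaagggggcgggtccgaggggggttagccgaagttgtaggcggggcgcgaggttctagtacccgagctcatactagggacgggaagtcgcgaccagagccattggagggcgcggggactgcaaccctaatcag
RIGI (chr9:32526147-32526446, minus strand): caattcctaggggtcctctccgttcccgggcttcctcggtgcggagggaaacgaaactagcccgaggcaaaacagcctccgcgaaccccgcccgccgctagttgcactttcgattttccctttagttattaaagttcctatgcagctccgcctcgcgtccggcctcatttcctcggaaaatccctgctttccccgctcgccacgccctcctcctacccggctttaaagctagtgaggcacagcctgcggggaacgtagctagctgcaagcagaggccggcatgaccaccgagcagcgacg
BST2 (chr19:17405581-17405880, minus strand): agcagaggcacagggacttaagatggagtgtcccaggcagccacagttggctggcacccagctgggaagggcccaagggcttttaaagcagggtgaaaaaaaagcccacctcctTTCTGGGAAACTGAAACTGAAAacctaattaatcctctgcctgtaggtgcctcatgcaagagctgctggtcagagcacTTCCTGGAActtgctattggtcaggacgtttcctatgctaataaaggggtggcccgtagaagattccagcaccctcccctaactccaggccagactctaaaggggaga
SAMD9 has 1 ISRE core, which begins 136 bases before the transcript start. The IFIT3 window shown has ISRE cores that begin 156 and 122 bases before its start. A second IFIT3 window (chr10:89332279-89332578), not shown, has ISRE cores that begin 94 and 51 bases before its start. In BST2 the ISRE cores begin 130 and 124 bases and the GAS cores 136 and 58 bases before the start. No match says only that these letters are not in the window. IFIT2, IRF7, DHX58, OAS2, OASL, MX2, TRIM22 and USP18 had no window in the table.

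The labels disagree on which column belongs to which sample. Titles and treatments match the table headers, whereas the free-text descriptions pair the combination columns with DMSO samples, the ibrutinib columns with SPX5551 samples, the SPX5551 columns with combination samples and the DMSO columns with ibrutinib samples, at each time alike. All values follow the headers. Under the descriptions every gene of the set called for the combination versus DMSO changed sign, and the values are given with the processing alternatives.

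Libraries held 19336303 to 28934030 counts. B-cell markers summed to 2404 to 3470 counts per 1000000 counts (CPM), and CCND1, the cyclin D1 gene whose translocation marks mantle cell lymphoma, averaged 1562 CPM. SOX11 averaged 6.02 CPM, while CD5, a marker often present on these lymphomas, stayed at or under 0.652 CPM. Myeloid markers summed to at most 2.17 CPM and T and NK cell markers to at most 10.8 CPM. Among 5 markers of plasmacytoid dendritic cells, a main source of interferon in blood, IL3RA was listed at 0 and CLEC4C and NRP1 at 2 counts each over all libraries, whereas LILRA4 and TCF4 averaged 39.1 and 181 CPM. Libraries also differed along a trend with transcript length, with Spearman's rho across genes between -0.40 and 0.41, negative in each SPX5551 library and positive in each ibrutinib library. Fewer cells of a kind and less RNA per cell cannot be told apart in such data.

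REC1 cells expressed most of the set while interferon genes had almost no counts. Of 21 interferon genes, 18 had no counts in any library, and all 21 together summed to at most 0.0502 CPM. Against this, 32 of the 39 interferon-stimulated genes had at least 1 CPM in every library and 4 were under 1 CPM in every library, namely IFI44, IFI44L, OASL and GBP1. OASL and GBP1, an oligoadenylate synthetase relative and a guanylate-binding GTPase, did not pass the filter on low counts, which left 37 genes for testing. IFIT2 was under 1 CPM in 1 library, USP18 in 8 and OAS2 in 5. The receptor chains IFNAR1 and IFNAR2 averaged 54.1 and 43.9 CPM, JAK1 183 CPM and TYK2 117 CPM.

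Levels spread widely within the set. By counts, ADAR, which edits adenosines in double-stranded RNA, averaged 351.8 CPM over the 12 libraries, IFI16, a nuclear DNA sensor, averaged 330.7 CPM, and TRIM22, an antiviral ubiquitin ligase, averaged 101.8 CPM. Per kilobase of the longest transcript, the order was IFI16 at 79.9 CPM per kb, BST2, the membrane tether of budding viruses, at 70.2, ADAR at 49.5, UBE2L6, the conjugating enzyme for ISG15, at 46.1 and TRIM22 at 34.1. ISG15 itself, the ubiquitin-like modifier, stood at 3.05 CPM per kb, and OAS2 at 0.265. Over the whole set the summed level ran from 1238 CPM in the 4 h combination library to 2158 CPM in the 12 h combination library. In the other treatments the 4, 8 and 12 h sums were 1394, 1783 and 1964 CPM with ibrutinib, 1400, 1403 and 1614 CPM with SPX5551, and 1248, 1466 and 1929 CPM with DMSO.

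**Figure D1:**
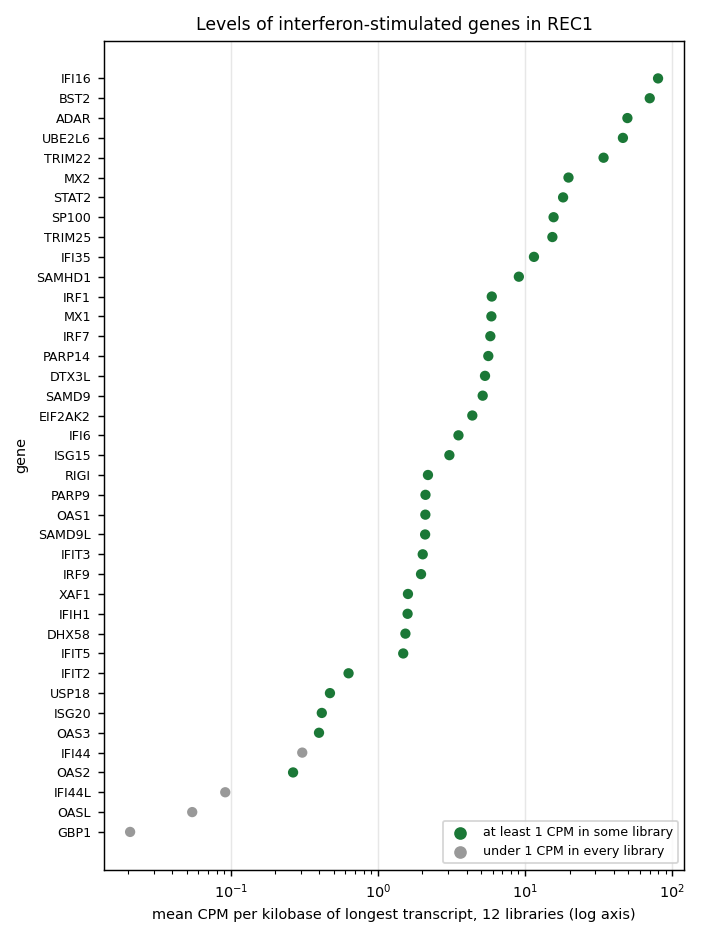
Mean level of each of the 39 interferon-stimulated genes over the 12 libraries, in CPM per kilobase of the longest transcript on a log axis, 1 point per gene. IFI16 is highest at 79.9 CPM per kb, and the 4 genes in grey stay under 1 CPM in every library.

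The combination against DMSO asked what both agents changed together. Of the 37 genes tested, 5 rose and 0 fell, namely IFIT2, SAMD9L, IRF7, STAT2 and RIGI (edgeR's quasi-likelihood test, adjusted p under 0.05 over 14412 genes). Among all genes tested 9.57% passed, 4.16% higher and 5.41% lower, beside 13.5% of the 37, all of them higher. The median log2 fold change of the set was 0.24, beside 0.02 over all genes, and 27 of the 37 were above 0, beside 52.6% of all genes. Since the set was chosen with earlier results of these data known, these values describe it and do not test it. In a second list of 45 interferon-stimulated genes, 39 of them tested, the median was 0.01, with 4 called higher and 3 lower. An unadjusted p under 0.05 was reached by 13 of the 37, beside 24.6% of all genes. In 24 of the 37 the combination library was above the DMSO library at each of the 3 times, as it was in 36.8% of all genes, and in 1, MX2, it was below at each time, as it was in 15.8% of all genes. These counts rest on CPM of total counts.

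**Figure D2:**
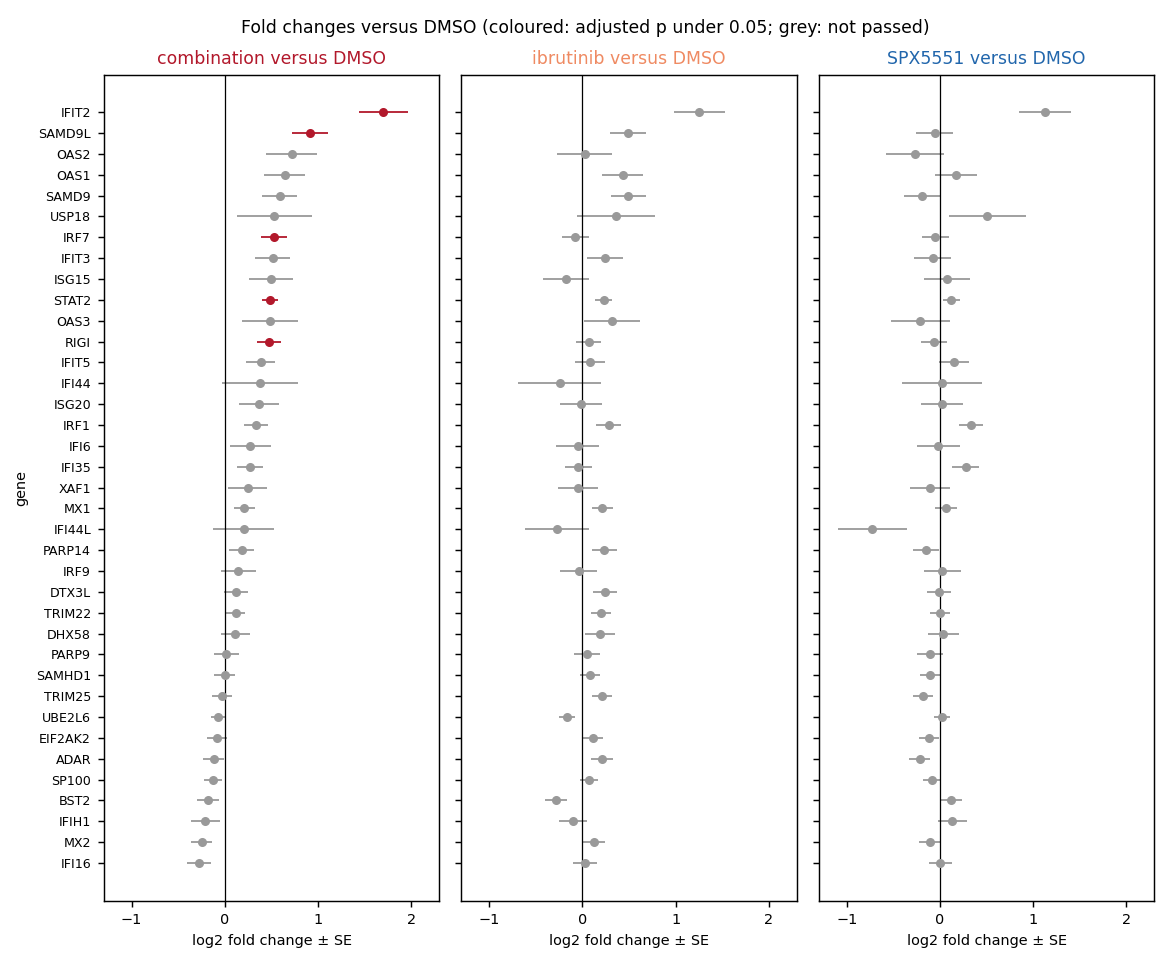
Log2 fold changes with standard errors (SE) of the 37 tested genes for the combination, ibrutinib and SPX5551, each versus DMSO (n = 3 libraries per treatment). Coloured points passed at an adjusted p under 0.05, which 5 genes did for the combination and 0 for either agent alone, and the genes run from IFIT2 at 1.70 down to IFI16 at -0.28 for the combination.

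The IFIT proteins bind viral RNA and restrain its translation. IFIT2 had 2.09, 3.15 and 5.48 CPM at 4, 8 and 12 h with the combination, 1.16, 2.52 and 3.98 CPM with ibrutinib, 1.96, 1.88 and 2.77 CPM with SPX5551, and 0.652, 1.19 and 1.18 CPM with DMSO. Every combination and SPX5551 library was above every DMSO library, while the ibrutinib and DMSO ranges overlapped. The log2 fold change of IFIT2 was 1.70 ± 0.26 for the combination versus DMSO (SE, n = 3 each; edgeR, adjusted p = 0.00123). It rested on 48, 91 and 134 counts in the combination libraries, against 13, 24 and 23 in the DMSO libraries. It stood at 1.25 ± 0.27 with ibrutinib (adjusted p = 0.175, edgeR) and 1.12 ± 0.28 with SPX5551 (adjusted p = 0.598, edgeR), neither of which passed. IFIT2 and IFIT3 overlap LIPA, a lysosomal lipase gene on the other strand, and whether counting used strand was not stated. The set held 8 genes that overlap a coding gene on the other strand, the others being TRIM22, PARP9, DTX3L, EIF2AK2, TRIM25 and SAMHD1. PARP9 and DTX3L overlap each other, and TRIM22 overlaps TRIM5. LIPA had 56.6 to 81.9 CPM over the 12 libraries and stood at 0.03 ± 0.09 for the combination versus DMSO (adjusted p = 0.872, edgeR).

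IFIT3 had 4.44, 6.67 and 8.51 CPM with the combination, 5.01, 5.05 and 5.22 CPM with ibrutinib, 3.52, 3.84 and 4.94 CPM with SPX5551, and 2.41, 5.06 and 5.59 CPM with DMSO at 4, 8 and 12 h. The combination was highest at 8 and 12 h, and its range overlapped the DMSO range. Its change of 0.51 ± 0.19 did not pass, nor did that of IFIT5 at 0.38 ± 0.16, whose combination libraries all lay above the DMSO libraries. IFIT1, from a second list of genes of the pathway, was under 1 CPM in every library.

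Among the transcription factors, IRF7, which amplifies type I interferon production, had 12.9, 19.2 and 16.2 CPM at 4, 8 and 12 h with the combination, 7.19, 11.1 and 12.8 CPM with ibrutinib, 7.44, 12.0 and 11.6 CPM with SPX5551, and 6.88, 14.9 and 10.5 CPM with DMSO. The combination was highest at each time and did not overlap either single agent, but its 4 h library lay below the 8 h DMSO library. IRF7 rose by 0.53 ± 0.14 versus DMSO (adjusted p = 0.028, edgeR). STAT2, a transcription factor of type I interferon signalling, had 57.3, 71.6 and 91.9 CPM with the combination, 45.1, 65.6 and 68.2 CPM with ibrutinib, 47.3, 54.4 and 60.3 CPM with SPX5551, and 37.1, 49.6 and 63.0 CPM with DMSO. It was highest with the combination at each time and rose by 0.48 ± 0.09 versus DMSO (adjusted p = 0.0042, edgeR), although the ranges overlapped across times. IRF1 and IRF9 stood at 0.34 ± 0.13 and 0.15 ± 0.19 and did not pass.

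RIGI, a cytoplasmic sensor of viral RNA, was the 1 sensor of 4 that rose. It had 9.89, 11.2 and 16.3 CPM with the combination, 6.78, 9.57 and 10.9 CPM with ibrutinib, 7.59, 8.35 and 8.20 CPM with SPX5551, and 7.33, 7.74 and 10.2 CPM with DMSO at 4, 8 and 12 h. The combination was highest at each time, with overlap only between its 4 h library and the 12 h libraries of ibrutinib and DMSO and no overlap with SPX5551. RIGI rose by 0.47 ± 0.13 (adjusted p = 0.0352, edgeR). The related sensors IFIH1 at -0.21 ± 0.15 and DHX58 at 0.11 ± 0.16, and the DNA sensor IFI16 at -0.28 ± 0.13, did not pass.

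SAMD9L and SAMD9 are neighbours on chromosome 7, 12031 bases apart on the same strand, and encode related proteins that restrain poxviruses and cell growth. SAMD9L had 9.63, 17.2 and 42.2 CPM at 4, 8 and 12 h with the combination, 7.10, 16.6 and 23.2 CPM with ibrutinib, 7.54, 9.70 and 12.2 CPM with SPX5551, and 4.67, 10.6 and 18.2 CPM with DMSO. The order at each time put the combination first, and the ranges of all treatments overlapped across times. SAMD9L rose by 0.91 ± 0.19 versus DMSO (adjusted p = 0.00817, edgeR). SAMD9 had 25.6, 31.0 and 85.7 CPM with the combination, 19.4, 42.3 and 61.7 CPM with ibrutinib, 18.9, 22.4 and 28.1 CPM with SPX5551, and 14.4, 24.9 and 48.4 CPM with DMSO. Its ibrutinib library was highest at 8 h and its combination library at 4 and 12 h, and its 0.59 ± 0.19 versus DMSO did not pass (adjusted p = 0.0589, edgeR). PARP9 and DTX3L, a pair that acts together in ubiquitin and ADP-ribose signalling, and PARP14 stood between 0.02 and 0.18.

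In the other groups of the set none passed for the combination versus DMSO. The oligoadenylate synthetases, which activate the nuclease RNase L, stood at 0.64 ± 0.22 for OAS1, 0.72 ± 0.27 for OAS2 and 0.48 ± 0.30 for OAS3. The ISG15 system gave 0.49 ± 0.23 for ISG15, 0.53 ± 0.40 for its protease USP18 and -0.07 ± 0.08 for UBE2L6. The dynamin-like GTPases MX1 and MX2 went apart, at 0.21 ± 0.11 and -0.25 ± 0.12. EIF2AK2, the kinase PKR that halts translation, stood at -0.09 ± 0.11, ADAR at -0.12 ± 0.12 and SAMHD1, which degrades deoxynucleotides, at -0.00 ± 0.11, and TRIM25, TRIM22 and SP100 at -0.03, 0.12 and -0.13. The nuclease ISG20 stood at 0.36 ± 0.22, IFI6 at 0.27 ± 0.22, IFI35 at 0.27 ± 0.14, XAF1, which promotes apoptosis, at 0.24 ± 0.21, IFI44 at 0.37 ± 0.40, IFI44L at 0.20 ± 0.32 and BST2 at -0.18 ± 0.12.

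**Figure D3:**
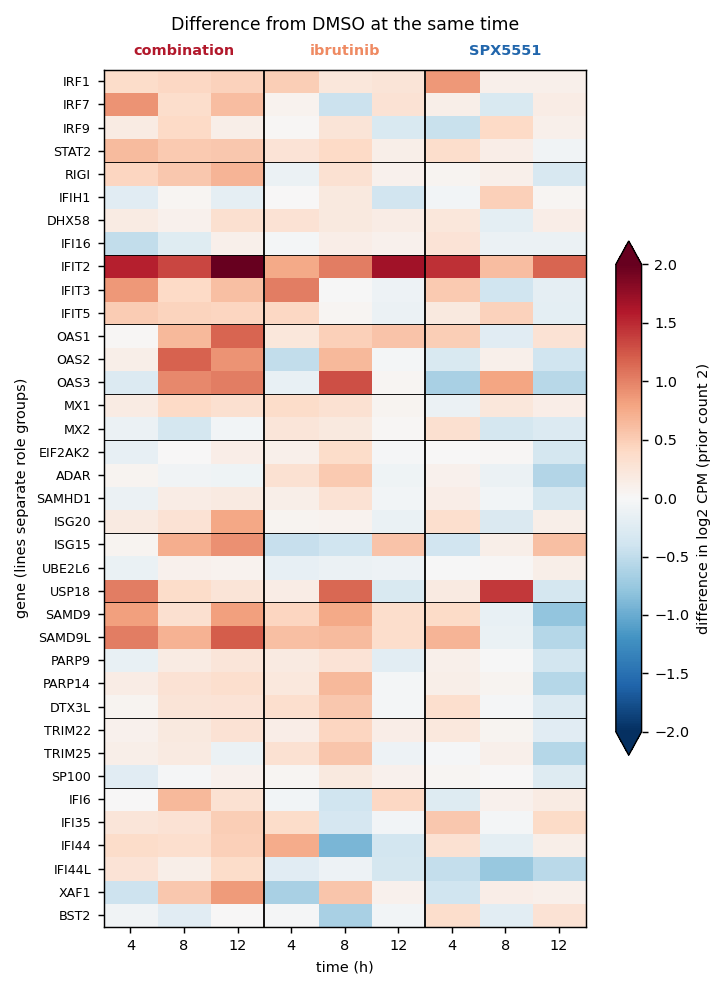
Difference in log2 CPM (prior count 2) between each treated library and the DMSO library of the same time, for the 37 tested genes grouped by role, with the combination, ibrutinib and SPX5551 from left to right. Red marks higher and blue lower than DMSO, and IFIT2 is higher at each time in each treatment.

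The 5 calls differed in how far they rested on single libraries. IFIT2 and STAT2 passed with each library left out in turn, SAMD9L did so except without the 12 h combination or the 4 h DMSO library, IRF7 except without the 4 h or 8 h combination or the 4 h or 12 h DMSO library, and RIGI was lost without any 1 combination or DMSO library, the 12 h ibrutinib or the 8 h SPX5551 library. Without the 12 h combination library 3 genes of the set passed, without the 4 h DMSO library 2, without that of DMSO at 12 h 3, and without that of SPX5551 at 4 h 8. The share of all genes called in the same fits is not given, here or for later counts with libraries or times left out. Such counts therefore do not show whether the set moved apart from all genes.

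No gene of the set passed for either agent alone. For ibrutinib versus DMSO 0 of 37 passed (0.104% of all genes did, all lower), with 6 of the 37 at an unadjusted p under 0.05 beside 11% of all genes, and a median log2 fold change of 0.08. DESeq2 called 1 and limma-voom 0, with no share of all genes given beside them. For SPX5551 versus DMSO 0 of 37 passed (0.000% of all genes), with 2 at an unadjusted p under 0.05 beside 8.33% of all genes, a median of -0.01, and 0 called by DESeq2 or limma-voom. IFIT2 was above DMSO at each time with either agent. SAMD9 and SAMD9L stood at 0.49 ± 0.19 each with ibrutinib, and IRF1 at 0.33 ± 0.13 with SPX5551. With ibrutinib the combination's other calls stood at -0.08 ± 0.15 for IRF7, 0.07 ± 0.14 for RIGI and 0.23 ± 0.09 for STAT2, and with SPX5551 at -0.05 ± 0.15, -0.07 ± 0.14 and 0.12 ± 0.09 for the same genes. These comparisons share the DMSO libraries with the one above. A miss does not show that an agent left a gene unchanged, since the 95% interval of IRF7 ran from -0.43 to 0.28 with ibrutinib and from -0.41 to 0.30 with SPX5551.

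The combination was next set against each agent to ask what the other agent added. Versus ibrutinib 1 of 37 passed (5.49% of all genes, 2.10% higher and 3.39% lower), which was IRF7 at 0.61 ± 0.14 (adjusted p = 0.0234, edgeR). The set's median was 0.16, beside 0.01 over all genes. The call was lost without the 4 h or the 8 h library of either treatment, and also once length and GC trends were taken out (0.31, adjusted p = 0.118, edgeR), in a comparison whose fold changes followed length across genes with rho = -0.33. A count of 2 genes was reached without the 4 h or the 12 h SPX5551 library.

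Versus SPX5551 6 of 37 rose and 0 fell, with 3.27% of all genes higher, 3.97% lower and 7.24% called in either direction. These were SAMD9L at 0.97 ± 0.19 (adjusted p = 0.00846, edgeR), SAMD9 at 0.78 ± 0.19, IRF7 at 0.58 ± 0.14, RIGI at 0.54 ± 0.13, STAT2 at 0.36 ± 0.09 and OAS2 at 0.99 ± 0.28 (adjusted p = 0.0423, edgeR). The median of the set was 0.15, beside 0.02 over all genes, and 30 of 37 values were above 0, beside 53.5% of all genes. OAS2 had 1.05, 1.69 and 3.03 CPM at 4, 8 and 12 h with the combination, 0.650, 1.14 and 1.55 CPM with ibrutinib, 0.754, 0.752 and 1.19 CPM with SPX5551, and 0.954, 0.695 and 1.59 CPM with DMSO. The combination was highest at each time, but the ranges overlapped, and DESeq2 and limma-voom did not call it. The count was 1 without the 4 h combination, the 12 h combination or the 12 h SPX5551 library, and 0 without the 8 h SPX5551 library.

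Whether the combination departed from the sum of the single agents was tested as an interaction on the log2 scale. None of the 37 genes passed (0.000% of all genes did). At an unadjusted p under 0.05 there were 4, beside 5.86% of all genes: IRF7 at 0.66 ± 0.20 (adjusted p = 0.766, edgeR), RIGI at 0.47 ± 0.19, OAS2 at 0.96 ± 0.41 and IFI44L at 1.20 ± 0.49, while DESeq2 and limma-voom called 0. The value of IFIT2 was negative, at -0.68 ± 0.36, with a 95% interval from -1.56 to 0.20.

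Pooling by exposure set 6 libraries against 6. In the ibrutinib-exposed libraries 5 genes rose and 1 fell relative to the unexposed ones, where 7.14% of all genes were higher and 6.58% lower (13.7% in all). SAMD9L rose by 0.73 ± 0.14 (adjusted p = 0.00749, edgeR), SAMD9 by 0.64 ± 0.13, IFIT2 by 0.86 ± 0.19 and STAT2 by 0.30 ± 0.06, each higher in 6 of 6 pairs of libraries matched by time and SPX5551. Pairs compare CPM of total counts. The share of all genes with 1 direction in 6 of 6 pairs is not given, here or for SPX5551 exposure. IFIT3 rose by 0.42 ± 0.14 (adjusted p = 0.0495, edgeR), in 4 of 6 pairs. Its call was kept in 7 of 24 alternatives and was lost with limma-voom. With 1 library left out it was kept in 3 of 12 fits. The calls of SAMD9L, SAMD9 and IFIT2 were kept in 12 of 12 such fits and that of STAT2 in 10.

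BST2 fell by 0.29 in the same comparison (SE 0.08; adjusted p = 0.0274, edgeR), lower in 6 of 6 pairs. The smallest differences in log2 CPM were -0.006 for the combination minus SPX5551 at 8 h and -0.020 for ibrutinib minus DMSO at 4 h. BST2 had 52.7, 80.8 and 74.1 CPM at 4, 8 and 12 h with the combination, 54.3, 60.0 and 71.4 CPM with ibrutinib, 70.4, 81.1 and 90.2 CPM with SPX5551, and 55.1, 94.2 and 73.8 CPM with DMSO. The widest gap was at 8 h between ibrutinib and DMSO, and the groups overlapped. BST2 was lost with the trend of length and GC removed. Across all genes, log2 fold changes of ibrutinib exposure followed transcript length with rho = 0.36, and its part in these results was not tested. The set's median longest transcript was 3882 bases, beside 3330 over all genes. The count of 6 fell to 3 without the 12 h combination or the 12 h SPX5551 library and was 10 without the 4 h SPX5551 library. With the 8 h or the 12 h time point left out, 0 passed.

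In the SPX5551-exposed libraries 1 gene rose and 1 fell, where 2.12% of all genes were higher and 4.89% lower (7.01% in all). IFIT2 rose by 0.71 ± 0.19 (adjusted p = 0.0332, edgeR), in 6 of 6 pairs. ADAR fell by 0.28 (SE 0.08; adjusted p = 0.0465, edgeR), and was lower in 4 of 6 pairs. ADAR had 318.7, 296.0 and 409.7 CPM at 4, 8 and 12 h with the combination, 378.2, 450.0 and 409.0 CPM with ibrutinib, 325.3, 289.1 and 291.3 CPM with SPX5551, and 306.7, 312.3 and 435.7 CPM with DMSO. Its lowest libraries were those of SPX5551 at 8 and 12 h, and the groups overlapped. ADAR was not called with scaling by library size only or once length and GC trends were taken out, and fold changes of SPX5551 exposure followed length across genes with rho = -0.39. Of the 2 calls, 0 were left without any 1 combination library, the 4 h or 8 h ibrutinib library, the 8 h or 12 h SPX5551 library or that of DMSO at 12 h, 1 was left without that of ibrutinib at 12 h or of DMSO at 4 h, and 4 genes were called without the 4 h SPX5551 or the 8 h DMSO library.

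**Figure D4:**
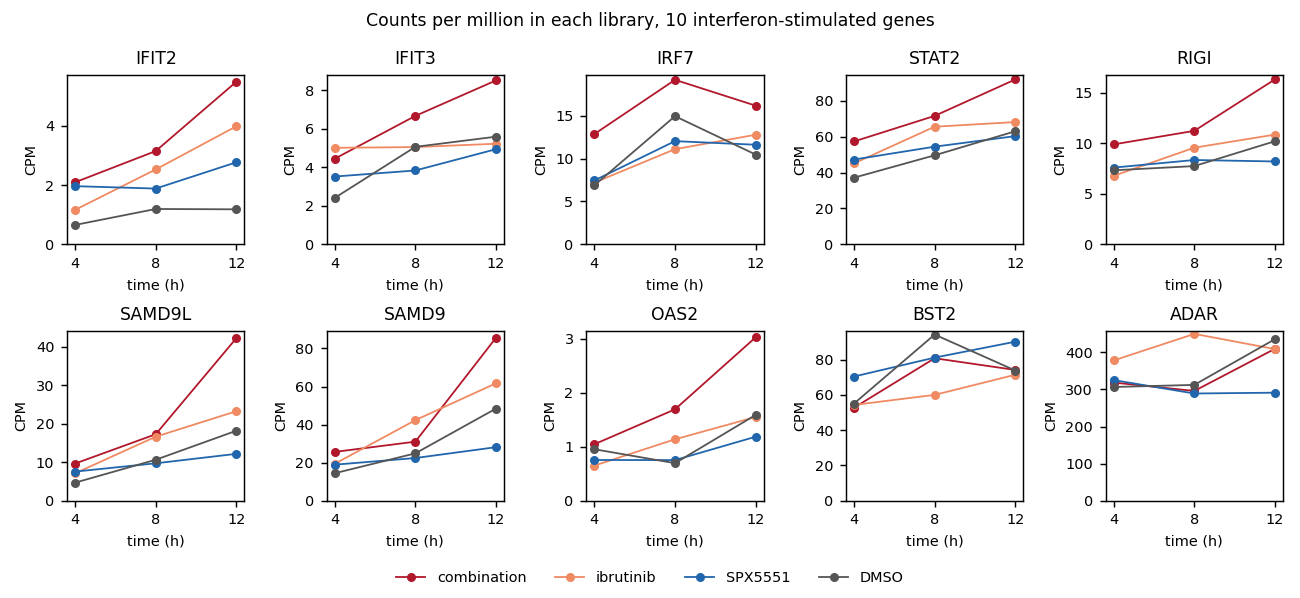
CPM in each of the 12 libraries for the 10 interferon-stimulated genes called in a treatment or exposure comparison, against time in hours, with 1 line per treatment and axes that start at 0. The combination is highest at 12 h in 8 of the panels, the exceptions being BST2 and ADAR.

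More genes of the set passed between 12 h and 4 h than between any pair of treatments. Over the 4 treatments 19 of 37 genes were higher and 2 lower at 12 h than at 4 h, where 18.4% of all genes were higher and 17.5% lower (35.9% in all), and the set's median was 0.34, beside 0.00 over all genes. SAMD9L rose by 1.56 ± 0.17 (n = 4 libraries per time; adjusted p = 2.11e-05, edgeR), OAS1 by 1.50 ± 0.19, SAMD9 by 1.36 ± 0.16, TRIM22 by 0.94 ± 0.09, IRF1 by 0.91 ± 0.12 and IFI16 by 0.91 ± 0.11. All 5 genes of the SAMD9 and PARP9 groups were among the 19, as were 3 of the 4 transcription factors, IRF9 being the exception at -0.02 ± 0.17. The lower pair was MX1 at -0.61 ± 0.10 and UBE2L6 at -0.25 ± 0.07, each lower in all 4 treatments. Markers of other cells passed between the same times, with CD3E at 0.55 ± 0.18, ITGAM at 1.57 ± 0.44, KRT8 at 0.53 ± 0.18 and KRT18 at 0.26 ± 0.10 higher and TRAC at -1.35 ± 0.34. ITGAM lay at 0.131 to 1.21 CPM. Markers of the line itself passed too, with 3 of 6 B-cell genes higher and 0 lower. These were CD79A at 0.44 ± 0.08, PAX5 at 0.46 ± 0.13 and CD22 at 0.62 ± 0.09, and SOX11 stood at 0.45 ± 0.12. Summed B-cell markers ran from 3223 to 3470 CPM at 12 h and from 2404 to 2856 CPM at 4 h. Summed over the 8 genes of each list, T and NK cell markers ran from 8.72 to 10.8 CPM at 12 h and from 6.71 to 8.43 CPM at 4 h, myeloid markers from 1.23 to 2.17 CPM at 12 h and from 1.02 to 1.71 CPM at 4 h, and stromal and epithelial markers from 40.2 to 48.7 CPM at 12 h and from 29.4 to 39.3 CPM at 4 h. The myeloid markers FCGR3A, S100A8 and S100A9 and the epithelial marker KRT19 were listed at 0. The part of these markers in the change with time was not tested.

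OAS1 had 12.1, 8.07, 6.57 and 5.39 CPM at 12 h with the combination, ibrutinib, SPX5551 and DMSO, against 2.31, 2.65, 3.22 and 2.26 CPM at 4 h in the same order. All 12 h libraries lay above all 4 h libraries. MX1 had 19.9, 16.7, 17.5 and 16.0 CPM at 12 h, against 26.0, 29.9, 21.5 and 23.3 CPM at 4 h, again without overlap. IRF1 was higher at 8 h already, with 43.2, 38.1, 34.8 and 32.4 CPM at 8 h against 17.1, 18.7, 24.1 and 13.2 CPM at 4 h, and its 12 h minus 8 h value was -0.09 ± 0.11.

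**Figure D5:**
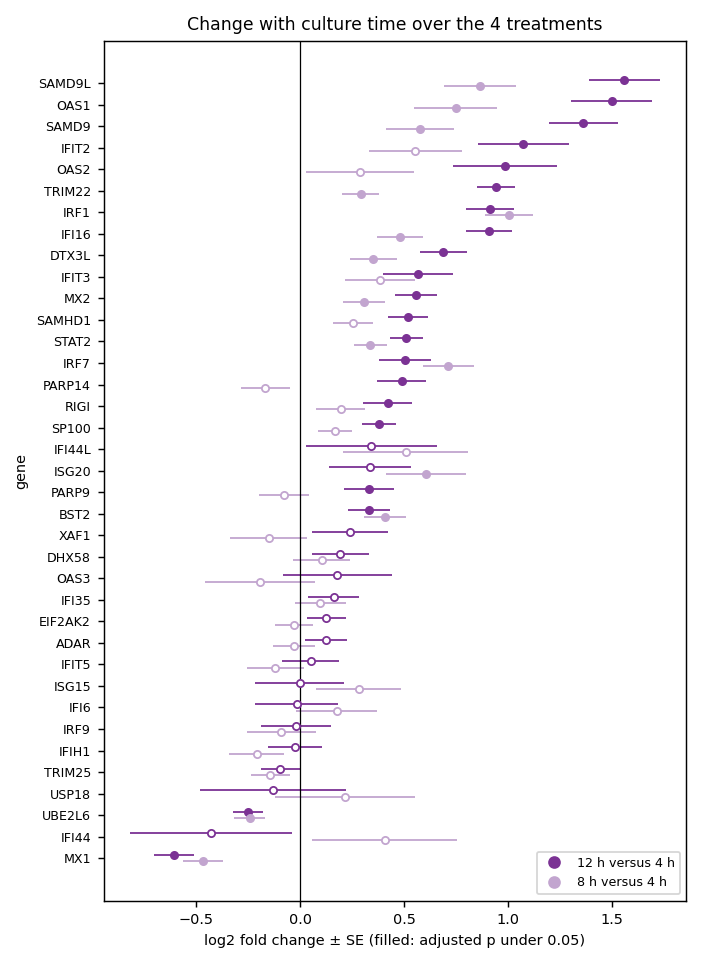
Log2 fold changes with SE over the 4 treatments for 12 h versus 4 h (dark) and 8 h versus 4 h (light) in the 37 tested genes (n = 4 libraries per time), filled where the adjusted p was under 0.05. SAMD9L is at the top with 1.56 at 12 h, and MX1 at the bottom with -0.61.

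At 8 h 12 genes were higher and 2 lower than at 4 h (13.1% of all genes higher, 13.4% lower, 26.6% in all), and at 12 h 7 were higher and 0 lower than at 8 h (4.41% higher, 4.66% lower, 9.08% in all). The 7 were OAS1, IFI16, SAMD9, SAMD9L, PARP9, PARP14 and TRIM22. The first count was 14 in all and dropped to 7 without the 4 h combination, the 4 h DMSO or the 8 h DMSO library, and to 9 without the 4 h or the 8 h ibrutinib library. The second was 1 without the 8 h or the 12 h library of the combination or of DMSO, 3 without the 12 h ibrutinib or the 8 h SPX5551 library, and 10 without the 12 h SPX5551 library.

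Within a treatment each time had 1 library, so the change with time is given there without a test. The median difference in log2 CPM between 12 h and 4 h over the 37 genes was 0.72 with the combination, 0.38 with ibrutinib, 0.21 with SPX5551 and 0.45 with DMSO, beside 0.10, 0.06, 0.04 and 0.12 over all genes in the same order. By single libraries, 23 of the 37 genes (62.2%) had their highest CPM in the 12 h combination library, as did 24.1% of all genes tested. The test of whether the ibrutinib effect differed between times called 0 of 37 (0.000% of all genes), with OAS1 and XAF1 at an unadjusted p under 0.05 beside 1.75% of all genes, and DESeq2 and limma-voom called 0.

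Genes upstream of the set were described from lists of the pathway. Of 11 tested receptor and JAK-STAT genes, 0 rose and 1 fell for the combination versus DMSO, beside 4.16% and 5.41% of all genes, the 1 being IFNGR1, a chain of the interferon gamma receptor, by 0.51 (SE 0.10; adjusted p = 0.00466, edgeR). In the ibrutinib-exposed libraries IFNAR1 rose by 0.22 ± 0.06 and STAT3 by 0.23 ± 0.07, and IFNGR1 fell by 0.34. Of 6 tested genes that restrain the pathway, the phosphatase PTPN6 fell with the combination by 0.65, and of 14 tested sensing genes TRAF3, an adaptor that also restrains non-canonical NF-kappaB signalling, fell by 0.31, each the only call of its list. The DNA sensor CGAS and its partner STING1 averaged 0.605 and 0.374 CPM.

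A second list of 45 interferon-stimulated genes held calls in both directions. Of 39 tested, 4 rose with the combination versus DMSO (4.16% of all genes did), the ISG15 ligase HERC5 by 1.13 ± 0.33, HELZ2 by 0.48 ± 0.11, TDRD7 by 0.47 ± 0.13 and PARP10 by 0.33 ± 0.10, and 3 fell (5.41% of all genes did), the chemokine CXCL10 by 1.74, TRIM14 by 0.69 and PNPT1 by 0.45, with a median of 0.01. HERC5 lay at only 0.248 to 2.44 CPM, its combination and DMSO ranges overlapped, and its adjusted p was 0.0436 (edgeR). With time 12 were higher and 6 lower at 12 h than at 4 h, beside 18.4% and 17.5% of all genes, the 6 being IFITM1, IFITM2, IFITM3, PNPT1, CXCL10 and CXCL9. CXCL10, which is induced by interferon gamma and by NF-kappaB, had 5.36, 10.5, 25.2 and 32.5 CPM at 12 h with the combination, ibrutinib, SPX5551 and DMSO, against 35.7, 60.7, 62.5 and 109 CPM at 4 h in the same order, and stood at -2.10 ± 0.22 for 12 h versus 4 h (adjusted p = 1.26e-05, edgeR).

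Other measures moved alongside the combination's calls. LILRA4, a plasmacytoid dendritic cell marker that REC1 expressed, fell versus DMSO by 1.17 (SE 0.13; adjusted p = 8.48e-05, edgeR), and the summed list of 5 such markers ran from 167 to 268 CPM with the combination and from 182 to 274 CPM with DMSO. TRAC, a T-cell receptor gene at 0.138 to 1.61 CPM, fell by 1.72 (SE 0.40), and the summed T and NK cell list ran from 6.71 to 10.8 CPM with the combination and from 8.43 to 8.93 CPM with DMSO. Their part in the results was not tested. Across all genes, fold changes of the combination versus DMSO showed almost no trend with transcript length (rho = 0.01). With the length and GC trend removed 7 genes of the set passed, and the share of all genes that did is not given here. IRF7 was not among the 7 (0.29, adjusted p = 0.111, edgeR), and it was lost in the same way versus SPX5551 (0.36, adjusted p = 0.0564, edgeR).

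Fold changes were also set beside the promoter windows. For the combination versus DMSO the median log2 fold change was 0.24 over 16 tested genes with an ISRE core and 0.19 over 14 without one, and the called genes with a window, STAT2, RIGI and SAMD9L, held none. For 12 h versus 4 h the medians were 0.25 and 0.40, with 7 and 9 genes called. These are descriptions of windows of 300 bases, without a test.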

How the data were processed

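Per the labels' protocols, poly(A) RNA was selected and directional libraries were sequenced on a NextSeq2000, whereas the molecule field reads genomic DNA. Per the submitters' processing notes, BWA and hg38 were used. Which tool counted reads, with which annotation and strand setting, was not given in the sources used here. The authors deposited whole-number counts for 60483 genes and log2 CPM for 14767 genes; log2 CPM recomputed from the counts correlated with the deposited values, r being 0.9999971 or more per library. Columns were assigned by header. The 3 ibrutinib headers also stand in descriptions of SPX5551 samples, so these columns were given to the ibrutinib group with the hour in the header.

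Symbols and positions came from GENCODE 29 (hg38) and a gene name table, for 93.8% of identifiers. Genes were filtered with filterByExpr in edgeR 4.0.16 (R 4.3.3), leaving 14412, scaled by trimmed mean of M values and fitted by quasi-likelihood in edgeR, with F-tests, on treatment and time, or on time and both exposures, with Benjamini-Hochberg adjustment at 0.05 over all genes. The common biological coefficient of variation was 0.101. SE is the absolute log2 fold change over the square root of F, and 95% intervals use 6 residual degrees of freedom. The F-tests use more degrees of freedom than that, so the intervals are wider than the tests. For IRF1 with ibrutinib versus DMSO the interval ran from -0.041 to 0.604 at an unadjusted p of 0.0488 (edgeR). CPM are counts per 1000000 total counts, and log2 CPM of single libraries carry a prior count of 2. Depth was 19336303 to 28934030 counts. Molecules were not tagged, so reads are not independent molecules. The fit was tested on simulated data.

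Genes called in any treatment or exposure comparison are given in all libraries, and others by role. The members and lists were chosen with earlier results of these data known. Alternatives were library size, DESeq2 1.42.0, limma 3.58.1, filters, trend removal, the columns by description, and libraries or times left out.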

Additional observations from a re-analysis of the deposited data

How the results depend on the processing

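Counts of interferon-stimulated genes called were recomputed under up to 26 alternatives, and 20 single values with them. Apart from the pairing by descriptions, all 20 kept their direction. Under that pairing the combination versus DMSO had IFIT2 at -0.57, IRF7 at -0.58, RIGI at -0.54, STAT2 at -0.36 and SAMD9L at -0.97, the combination versus ibrutinib had IRF7 at -0.051, and the combination versus SPX5551 had RIGI at -0.13, OAS2 at -0.29, STAT2 at -0.11, SAMD9 at -0.69 and SAMD9L at -0.55. Ibrutinib exposure then gave IFIT2 -0.84, IFIT3 -0.42, STAT2 -0.30, SAMD9 -0.63, SAMD9L -0.73 and BST2 0.29, and SPX5551 exposure ADAR 0.057. These follow from exchanged labels. The counts under it were 6 for the combination versus DMSO (all lower), 5 for ibrutinib and 1 for SPX5551 versus DMSO, 0 versus ibrutinib, 4 versus SPX5551, 2 and 0 for ibrutinib and SPX5551 exposure, and 1 for the interaction.

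With 1 library left out, counts ran from 2 to 8 for the combination versus DMSO, 0 to 2 versus ibrutinib, 0 to 7 versus SPX5551, 3 to 10 and 0 to 4 for ibrutinib and SPX5551 exposure, 16 to 21 for 12 h versus 4 h, 7 to 16 for 8 h versus 4 h and 1 to 10 for 12 h versus 8 h, and stayed 0 for ibrutinib or SPX5551 versus DMSO, the interaction and ibrutinib by time. With no filter they were 8, 3 and 1 for the combination, ibrutinib and SPX5551 versus DMSO, 6 for the combination versus ibrutinib, and 10 and 4 for the exposures. With no time term they were 0 for the combination versus DMSO, ibrutinib and SPX5551 and for both exposures. Without the 4, 8 and 12 h time point the combination versus DMSO gave 2, 1 and 4 (3 higher, 1 lower), versus ibrutinib 0, 0 and 5 (2 higher, 3 lower), and versus SPX5551 1, 3 and 2. SPX5551 exposure gave 1, 0 and 0, ibrutinib exposure 0 without 8 h and 0 without 12 h, and ibrutinib versus DMSO and the interaction 1 each without 12 h. With the libraries of ibrutinib at 8 h and SPX5551 at 12 h both left out, counts were 9 for the combination versus DMSO, 3 versus ibrutinib, 2 and 1 for the exposures and 21 for 12 h versus 8 h. The libraries of both groups alone gave 11 versus DMSO and 3 versus SPX5551. DESeq2 gave 1 for ibrutinib versus DMSO and 3 for the combination versus ibrutinib (1 higher, 2 lower), trend removal 3 for the combination versus ibrutinib, without IRF7, and library size 1 for SPX5551 exposure. No share of all genes is set beside these counts, nor beside the earlier counts with libraries left out. They therefore do not show whether the set moved apart from all genes. The cause of these shifts in the counts was not tested.

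Of the 25 alternatives, IFIT2 for the combination versus DMSO kept its call in 24, STAT2 in 22, SAMD9L in 21, IRF7 in 16 and RIGI in 12. Where a treatment was left with 2 libraries, spread was pooled over all treatments. Low counts limit IFIT2, OAS2, USP18, IFI44 and IFI44L. The labels give no replicate numbers, so libraries could be paired only by hour. That pairing is in the fit as its time term and in the differences matched by time.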
